A study of Mus musculus with 18 samples.

Results

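The binding of C/EBPα at 30 and 60 min after induction was compared in 37268 bins of 200 bp, which are 0.301% of the 12361722 bins of mouse chromosomes 1 to 19 (mm9). There was 1 ChIP-seq library for each time point. After removal of reads that repeat a position on the same strand, the 30-min library held 12648159 reads on these chromosomes and the 60-min library 19004890, of which a random 66.6% were kept so that both had the same depth. Each 5′ end was moved 75 bp inward, towards the middle of its fragment, and a bin was included if it held 10 or more reads in either library. The mean over all bins was 1.02 reads.

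Both libraries came from C10 cells, a line made from HAFTL pre-B cells that expresses a GFP-tagged fusion of C/EBPα and the estrogen receptor. The cells were treated with β-estradiol, which moves the fusion protein into the nucleus, in the presence of IL-3 and CSF-1, and the control cells at 0 hpi received ethanol, the solvent. The chromatin was precipitated with an antibody to C/EBPα (sc-61) and sequenced on a HiSeq2000 with reads of 50 bases. The values describe 1 line with a transgene, no input control entered the comparison, and no defining marker of pre-B cells can be checked in ChIP-seq data, which hold no expression levels.

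C/EBPα is a basic leucine zipper protein that binds DNA as a dimer, and its recognition sequence is a palindrome of TTGC and its reverse complement GCAA. In blood formation it directs progenitors to the granulocyte and macrophage lineages, and when introduced into B cells it converts them to macrophage-like cells. PU.1, an ETS family factor present in B cells at a low level and in macrophages at a high level, occupies many of the same enhancers. Many liver and fat genes are bound by C/EBPα in their own tissues.

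The bins below show the kinds of sequence behind the comparison. Those near *Lrrk2*, *Runx1* and *Lrrc40* were among the bins with the most reads, those near *Dtnb*, *Tlr2* and *Csf1* had at least 2 times as many reads at 60 as at 30 min, and those near *Dad1* and *Jag2* had at least 2 times as many at 30 min. All are the plus strand of mm9. Capitals mark each match to TTGCNNAA on either strand, except near *Dad1*, where they mark the E-box CAGCTG, and the *Jag2* bin held none of the motifs that were searched.
Lrrk2, chr15:91463601-91463800: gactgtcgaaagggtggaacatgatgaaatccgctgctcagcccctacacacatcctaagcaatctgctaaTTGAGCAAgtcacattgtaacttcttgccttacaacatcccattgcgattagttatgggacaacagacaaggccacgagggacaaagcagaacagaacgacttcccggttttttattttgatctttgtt
Runx1, chr16:92715801-92716000: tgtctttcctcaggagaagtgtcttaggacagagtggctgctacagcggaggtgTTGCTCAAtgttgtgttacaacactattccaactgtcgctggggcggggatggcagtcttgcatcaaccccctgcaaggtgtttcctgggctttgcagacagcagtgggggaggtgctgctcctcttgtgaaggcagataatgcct
Lrrc40, chr3:157725201-157725400: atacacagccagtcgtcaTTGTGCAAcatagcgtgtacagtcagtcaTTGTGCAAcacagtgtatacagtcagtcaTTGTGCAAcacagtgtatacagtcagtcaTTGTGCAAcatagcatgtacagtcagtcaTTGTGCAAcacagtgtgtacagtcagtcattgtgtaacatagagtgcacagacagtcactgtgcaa
Dtnb, chr12:3660001-3660200: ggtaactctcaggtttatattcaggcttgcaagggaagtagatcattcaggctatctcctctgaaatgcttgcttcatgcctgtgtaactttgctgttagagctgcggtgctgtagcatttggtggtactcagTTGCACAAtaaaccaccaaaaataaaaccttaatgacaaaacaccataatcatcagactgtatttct
Tlr2, chr3:83689201-83689400: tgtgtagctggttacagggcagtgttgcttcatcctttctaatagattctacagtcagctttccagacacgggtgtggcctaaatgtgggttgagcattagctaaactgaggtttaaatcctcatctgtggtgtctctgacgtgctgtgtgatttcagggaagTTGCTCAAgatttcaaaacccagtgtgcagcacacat
Csf1, chr3:107571601-107571800: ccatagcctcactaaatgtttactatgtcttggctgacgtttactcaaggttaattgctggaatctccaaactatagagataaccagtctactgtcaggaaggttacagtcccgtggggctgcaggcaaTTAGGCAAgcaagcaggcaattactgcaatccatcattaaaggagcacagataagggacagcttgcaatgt
Dad1, chr14:54847001-54847200: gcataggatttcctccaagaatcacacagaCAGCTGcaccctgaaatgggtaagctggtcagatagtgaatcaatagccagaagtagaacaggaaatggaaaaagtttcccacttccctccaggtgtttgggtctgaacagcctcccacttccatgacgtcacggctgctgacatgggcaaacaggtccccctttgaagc
Jag2, chr12:114155601-114155800: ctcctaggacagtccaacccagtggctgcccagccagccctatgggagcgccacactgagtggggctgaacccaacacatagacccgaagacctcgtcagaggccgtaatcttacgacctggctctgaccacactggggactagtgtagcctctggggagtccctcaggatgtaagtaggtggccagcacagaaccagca

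Among the sites with the most reads, the bin near *Lrrk2*, which encodes a kinase, lay 39.9 kb upstream of the transcription start site (TSS) between genes, and it held 269 reads at 30 min (95% interval 238 to 303) and 198 at 60 min (171 to 228). The bin near *Runx1*, a transcription factor of blood formation, lay in an intron and held 260 and 169 reads. In the intron of *Lrrc40*, a short unit repeated in tandem gave 5 matches to the consensus within 1 bin, which held 251 reads at 30 and 180 at 60 min. The other 3 of the 6 sites with the most reads lay near *Chek2*, *Nup210* and *Gm4968* and had ratios of 60 to 30 min of 0.737, 0.706 and 0.674. All 6 had fewer reads at 60 min, with 95% intervals of the ratio below 1. All intervals given here are exact and cover counting error only, and with 1 library per time point none of them shows how far a second culture would differ. No test between the time points was therefore made.

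The crowding of reads moved with this pattern. A bin offers 400 combinations of position and strand, each of which can count once, and the 272 bins with 300 or more reads over both libraries had a median of 47.8% of them occupied at 30 min and 56.0% in the full 60-min library. Their median log2 ratio of 60 to 30 min, computed on reads + 1, was −0.37, and it was −0.29 at full depth with a correction for occupied positions, 2 changes at once. How far crowding shaped these values was not tested.

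Over all 37268 bins, the reads at 60 min were slightly higher. The median bin held 14.0 reads at 30 min and 16.0 at 60 min, and the median log2 ratio was 0.18 (order-statistic interval 0.17 to 0.19, over bins, which are not replicates). The quartiles were −0.35 and 0.78. At least 2 times as many reads were present at 60 min in 8069 bins, or 21.7% of those compared, and at least 2 times as many at 30 min in 3612 bins, or 9.69%. These 2 shares are the background against which the counts below stand. With bins of 400 bp and the same minimum they were 25.3% and 19.9%, so that the difference between them depended on the bin size. Medians of single chromosomes ranged from 0.09 on chromosome 11 to 0.25 on chromosome 13, so that all 19 were above 0.

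**Figure D1:**
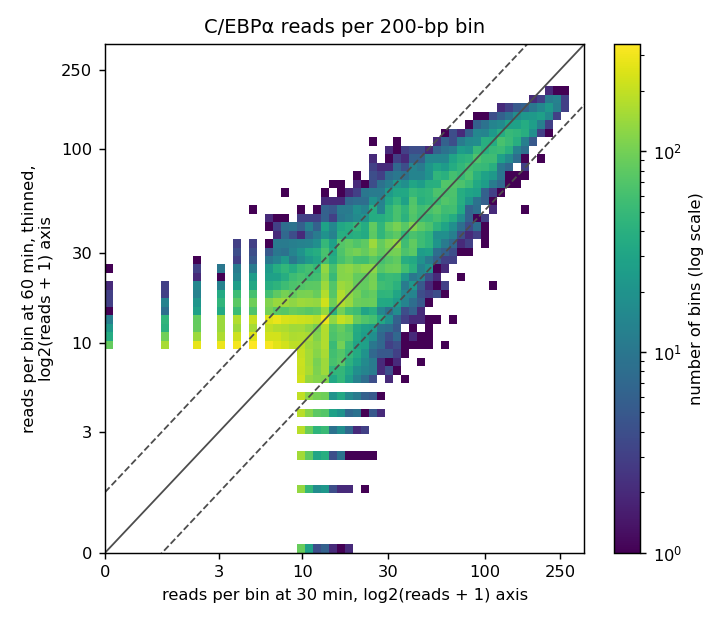
Reads per 200-bp bin at 30 min (x axis) and at 60 min after thinning to equal depth (y axis), both as log2(reads + 1), with the number of bins per cell as colour on a log scale and dashed lines where reads + 1 differ 2-fold. Most of the 37268 bins lie between the dashed lines, the cloud is widest at low reads, and the bins with the most reads lie below the diagonal.

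Most of the called bins had few reads, and many of them had to differ by the way they were chosen. In 9798 bins the minimum of 10 reads was reached at 60 min alone and in 5501 at 30 min alone, and these bins contributed 6572 of the 8069 and 3125 of the 3612 called bins. Among the 21969 bins with 10 or more reads in both libraries, 1497 (6.81%) had at least 2 times as many reads at 60 min and 487 (2.22%) at 30 min, and the median log2 ratio was 0.07. In bins that passed through 1 library the direction of the calls follows from the rule, so that only the bins with the minimum in both bear on it. Just inside the threshold, 4446 bins with at most 10 reads in either library had medians of 8.0 and 10.0 reads at 30 and 60 min. Just outside it, 6997 bins with at most 9 reads had medians of 8.0 and 9.0.

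The bins were also divided by their reads over both libraries. These classes use the same reads as the ratio, so that their values are a description fixed in part by the choice of bins. Every bin with 10 to 19 reads over both libraries passed through 1 library alone, and the direction of its ratio follows from the rule. From 10 to 19 reads over both libraries, the median log2 ratio was 0.65, with 43.1% of bins called higher at 60 min and 23.3% higher at 30 min. From 20 to 29 reads it was 0.22, from 30 to 49 it was 0.19, and from 50 to 99 it was 0.14. In the 4414 bins with 100 or more reads it was −0.10, and only 2.13% and 0.929% were called. Groups of bins are compared below within these classes as well, and the values of the lowest class are given there as a description only.

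The bins were split by their reads in the library at 10 min, which did not enter their choice. The 14408 bins of the lowest tertile of reads at 10 min had a median log2 ratio of 0.64, with 39.2% called higher at 60 min. The middle tertile had 0.21 and 18.3%, and the highest −0.13 and 2.88%. Among the bins with 10 or more reads in both libraries, with the same tertiles, the medians were 0.34, 0.18 and −0.11, and 15.8%, 8.2% and 1.54% were higher at 60 min, beside 6.81% of all such bins. Of these bins, 0.501%, 1.5% and 3.51% were higher at 30 min, beside 2.22% of all such bins. The order of the medians was the same within classes of reads. Bins with 10-min reads above the median of their class had a ratio lower by 0.58, 0.39, 0.55, 0.55 and 0.37 (differences of medians in log2, from the lowest to the highest class) than the other bins of the class. All bins behind the 0.58 passed through 1 library alone.

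PU.1 binding before induction split the bins in the same direction. A PU.1 window with 10 or more reads at 0 hpi lay within 500 bp of 12679 bins (34.0%). Their median log2 ratio was −0.07 (−0.09 to −0.05), and those higher at 60 min (11%) were about as frequent as those higher at 30 min (10.8%). In the 24589 bins without PU.1 the median was 0.34 (0.32 to 0.36), and 27.1% were higher at 60 and 9.11% at 30 min. In bins with the minimum in both libraries, 2.41% with PU.1 and 9.64% without were higher at 60 min, and 3.03% and 1.7% at 30 min. The medians of these bins were −0.08 (−0.09 to −0.06) with PU.1 and 0.15 (0.14 to 0.17) without. The difference of medians was thus −0.23 in place of −0.42, and it was −0.27 with bins of 400 bp. Within the 5 classes of reads, bins with PU.1 had medians lower by 0.56, 0.30, 0.34, 0.33 and 0.19. The value of 0.56 is from bins that all passed through 1 library alone. Bins with PU.1 had also held more C/EBPα at 10 min (median 4.95 against 2.89 reads per 10M, that is per 10000000 reads of the library), and within the tertiles of 10-min reads the difference was −0.41, −0.23 and −0.11, from the lowest to the highest. These 3 differences are over all bins and were not computed with the minimum in both libraries.

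The C/EBP consensus split them the other way. TTGCNNAA, searched on both strands, was present in 9306 of the bins compared, and in 9.28% of all bins of the chromosomes without unknown bases. Bins with the consensus had a median log2 ratio of 0.32 (0.29 to 0.34), and 25.1% were higher at 60 and 6.53% at 30 min. Bins without it had a median of 0.14, with 20.5% and 10.7%. With the minimum in both libraries the medians were 0.14 (0.13 to 0.16) and 0.02 (0.00 to 0.04), a difference of 0.12 in place of 0.18, and 9.83% and 5.74% were higher at 60 min. Higher at 30 min were 1.42% and 2.5% of these bins. By classes of reads, the consensus was linked to medians higher by 0.19, 0.25, 0.23, 0.25 and 0.07. The value of 0.19 is a description only, from bins that all reached the minimum at 30 or at 60 min but not at both. The 6983 bins with the consensus but without PU.1 had a median of 0.46, those with neither 0.29, those with both −0.04 and those with PU.1 alone −0.08. With the minimum in both libraries these medians were 0.24, 0.12, −0.07 and −0.08.

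**Figure D2:**
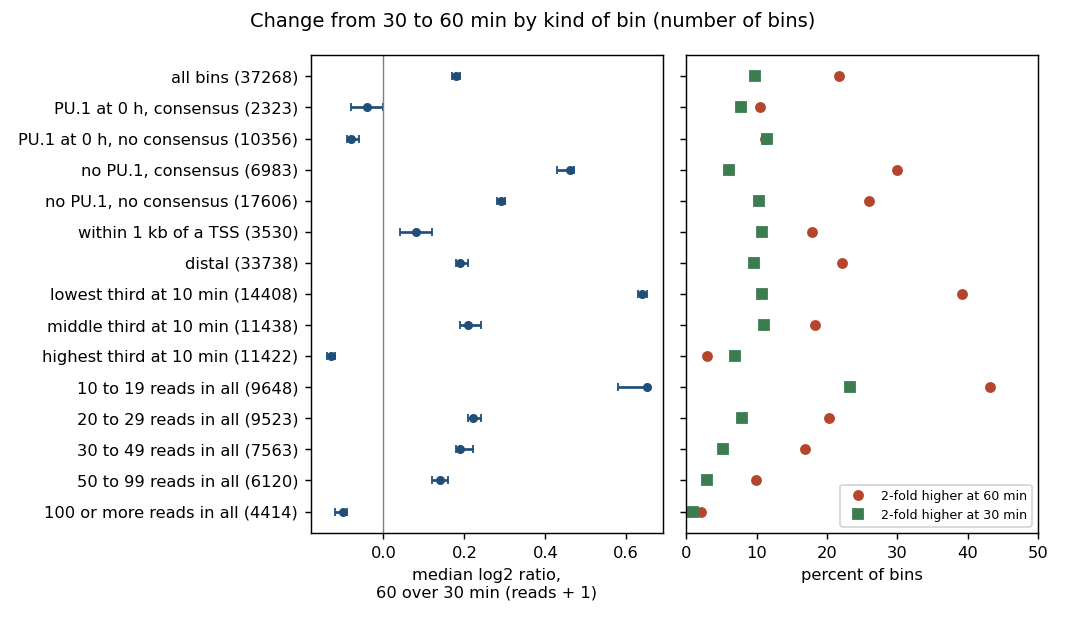
Median log2 ratio of reads + 1 at 60 over 30 min (left, with its order-statistic interval over bins) and percent of bins with at least 2 times as many reads at either time point (right) for each kind of bin. The lowest tertile of reads at 10 min (0.64), bins with 10 to 19 reads (0.65) and bins with the consensus but without PU.1 (0.46) lie farthest right, and bins of the highest 10-min tertile lie at −0.13.

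Bins with a single match differed by the 2 bases that the consensus leaves free. On the strand that reads TTGCNNAA, the median log2 ratio was highest for GA (0.49, 0.39 to 0.64, 258 bins) and GT (0.42, 0.33 to 0.52), followed by AC (0.38) as the most frequent pair with 1341 bins. It was 0.10 (0.01 to 0.19) for GC and 0.00 (−0.10 to 0.21) for TG. TTGCGCAA, a subset of the consensus that is its own reverse complement, occurred in 280 bins (0.751%, against 0.0162% of all bins). They had a median of 0.13. The intervals of GA, GT and AC overlapped each other, and none of them overlapped those of GC and TG. Those of the rarer pairs CG (0.10, −0.45 to 0.51) and GG (0.10, −0.14 to 0.38) overlapped the intervals of GT and AC. All these intervals are over bins, which are not replicates, and the pairs were picked by their medians, so that they are no test between pairs. The values were not computed with the minimum in both libraries or within classes of reads.

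The other motifs, also searched on both strands, had medians between 0.00 and 0.26. The AP-1 sequence TGACTCA was present in 5.48% of the bins (3.14% of all bins) and had a median of 0.26. The PU.1 sequence GAGGAAGT was present in 4.16% (1.20% of all bins), with a median of 0.00. The RUNX sequence TGTGGTT, present in 9.23% (4.73%), had 0.13, the EBF1 sequence TCCCNNGGG, present in 7.91% (1.87%), had 0.16, the C/EBP-ATF sequence TGATGCAA, present in 2.82% (0.617%), had 0.10, and the E-box CAGCTG, present in 15.3% (7.37%), had 0.13. The bins compared had a median GC content of 46.0%, against 42.0% of all bins without unknown bases, and the shares of motifs were not matched for it. The medians of these motifs were not computed with the minimum in both libraries. The 3530 bins within 1 kb of the TSS of a protein-coding gene had a median of 0.08 and the distal bins 0.19. With a distance of 5 kb this difference was no longer present (0.01, with an interval of 0.0293 to either side, against −0.11).

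Over the whole time course the 3 classes of bins followed different courses at C/EBPα. The bins higher at 60 min had medians of 2.31, 2.06, 3.95 and 10.5 reads per 10M at 0 hpi, 10, 30 and 60 min, then 9.22 at 3 hpi, 5.14 at 12 hpi, 2.70 at 24 hpi and 2.58 at 48 hpi. Bins within 2-fold had 4.54 at 10 min, 14.2 at 30 min, 14.7 at 60 min, 12.9 at 3 hpi and 3.87 at 48 hpi. The bins higher at 30 min had 2.89 at 10 min, 9.49 at 30 min, 4.21 at 60 min and 4.61 at 3 hpi. The values at 30 and 60 min define the classes, and those of the other libraries were not used for them. Most of the called bins passed the minimum only through the library in which they were high (6572 of 8069 and 3125 of 3612). The courses were not computed for the other called bins alone. At 3 hpi, which was sequenced on another instrument with reads of 36 bases, the bins higher at 60 min were near their 60-min level, and those higher at 30 min were near their own lower level.

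**Figure D3:**
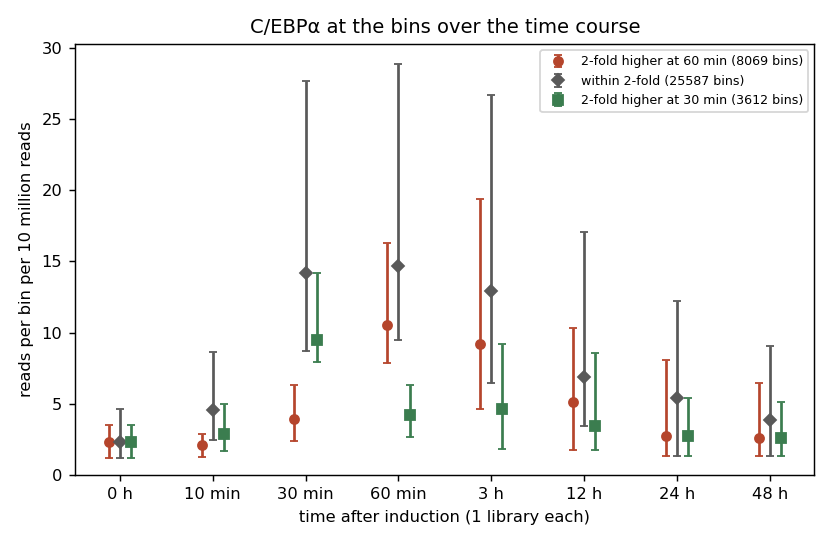
Median reads per 10M (points, with quartiles as bars) in the 8 C/EBPα libraries for the bins at least 2-fold higher at 60 min, within 2-fold, and at least 2-fold higher at 30 min. The classes are defined by the 30- and 60-min values, and at 3 hpi their medians were 9.22, 12.9 and 4.61.

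More reads per 10M at 3 hpi than at 10 min were found in 89.6% of the bins higher at 60 min (95% interval 88.9 to 90.3), 83.2% of those within 2-fold and 65.2% of those higher at 30 min (63.6 to 66.8). Over all bins compared the share was 82.8%. Of the bins higher at 30 min, 65.0% lay in the lowest tertile of reads at 3 hpi, beside 38.4% of those higher at 60 min and 33.4% of all bins. PU.1 was present at 0 hpi in 17.3% of the bins higher at 60 min, 38.7% of those within 2-fold and 38.0% of those higher at 30 min. Where it had been absent, it was present at 48 hpi in 19.1%, 23.7% and 17.9%, beside 5392 of 24589 over all bins. The same minimum of 10 reads was used at both times. The PU.1 library at 48 hpi was deeper (10204581 reads against 6884238 at 0 hpi), and how far depth shaped these shares was not tested. Sites of a single bin, which stand alone without a neighbour, made up 49.3% of the bins higher at 60 min, 29.2% of those within 2-fold and 52.0% of those higher at 30 min, so that both called classes consisted more often of isolated bins. Among all bins they made up 35.8%. Bins with 10 to 19 reads over both libraries were 51.6% of the bins higher at 60 min and 62.1% of those higher at 30 min.

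The same computation for neighbouring time points gives the scale of the 30- to 60-min difference, and it shares 1 library with each of them. From 10 to 30 min, 28169 bins passed, 82.4% were at least 2-fold higher at the later time, 1.46% at the earlier, and the median log2 ratio was 1.66. From 60 min to 3 hpi, 42854 bins passed, with 35.8% and 19.1% and a median of 0.35, but the instruments differed. At the depth of this pair, 30 and 60 min gave 20.9% and 8.92% and a median of 0.17. The share of reads inside the bins was 2.11% at 10 min against 6.69% at 30 min for the former pair, and 7.10% at 30 min against 7.52% at 60 min.

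Single sites were named by the extremes of their 60-min share of reads, so that their values are a description of that choice. Most of them passed the minimum only through the library in which they were high. Bins are assigned to the protein-coding gene with the nearest TSS, which does not mean that they regulate it. The bin in an intron of *Dtnb*, which encodes dystrobrevin beta, had no read at 30 min and 25 at 60 min. With a floor of 3 reads for 0 the bin was 8.33-fold higher at 60 min, and its lower interval bound was 6.29-fold. It held 23.1 reads per 10M at 3 hpi and 3.47 at 0 hpi. The bin near *Socs1*, which encodes an inhibitor of cytokine signalling, lay 82.9 kb downstream of its TSS in an intron of another gene. It had 5 reads at 30 and 48 at 60 min, a ratio of 9.60 (3.84 to 30.9), and it kept 32.3, 36.0 and 24.5 reads per 10M at 3, 12 and 48 hpi.

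Other bins with the highest share of 60-min reads lay near *Nfia* (0 and 20 reads at 30 and 60 min), *Fgl2* (0 and 19), *Phtf2* (0 and 18), *Diap1* (0 and 18), *Pik3r1* (0 and 17) and *Klhl3* (0 and 16). At 3 hpi they held between 2.77 (*Fgl2* and *Phtf2*) and 16.6 (*Pik3r1*) reads per 10M. None of these 6 contained the C/EBP consensus and none had PU.1 at 0 hpi. All 6 values at 3 hpi were below those of the *Dtnb* and *Socs1* bins.

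In the opposite direction, the bin near *Dad1*, 26.5 kb from its TSS, had 62 reads at 30 min and 10 at 60 min, a ratio of 0.161 (0.0737 to 0.317). *Dad1* encodes a subunit of the oligosaccharyltransferase and lies at the border of the T cell receptor alpha locus. The bin had PU.1 at 0 hpi and carried 28.9 reads per 10M at 10 min, 8.95 at 60 min and 5.53 at 3 hpi. In the intron of *Jag2*, a Notch ligand, 22 reads stood against 1, a ratio of 0.0455 (0.0011 to 0.281), with 8.25 reads per 10M at 10 min and 2.77 at 3 hpi. The bins near *Hivep2* and *Sec63* had 15 reads and none, 5.00-fold lower at 60 min by the same floor (interval bound 3.59). Those near *Phlpp1*, *Banf2*, *Cdh5* and *Cep78* had 13 and none, 4.33-fold lower (interval bound 3.05). In the full 60-min library the *Sec63* and *Phlpp1* bins had 1 read each and the *Cep78* bin 2. A C/EBP consensus was present in the *Cdh5* bin and PU.1 at 0 hpi at the *Banf2* bin.

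Genes with several bins allow the reads to be summed. This rule was chosen after the values had been seen, and it ranks genes with 8 or more bins within 100 kb by the median log2 ratio of their bins. Bins that reached the minimum at 60 min alone or at 30 min alone were not left out, here or for the ranked genes below. The medians, the ratios of summed reads and their intervals therefore describe that choice in part. They were not computed for bins with the minimum in both libraries. Of 1131 such genes, 717 had a median above 0 and 370 below. *Zbtb38*, which encodes a zinc finger protein that binds methylated DNA, was highest with a median of 1.81. Its 9 bins had 76 reads at 30 and 187 at 60 min, a ratio of 2.46 (1.87 to 3.26). Summed reads per 10M over these bins were 13.9 at 0 hpi, 22.3 at 10 min, 60.1 at 30 min, 147 at 60 min, 255 at 3 hpi and 28.3 at 48 hpi.

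*Atp8a1*, a flippase of membrane phospholipids, had 13 of 16 bins in the higher class, with 203 and 484 reads (ratio 2.38, 2.02 to 2.82), and 595 reads per 10M at 3 hpi. Near *Nipbl*, which encodes a factor that loads cohesin, 10 of 11 bins were higher at 60 min, with 92 and 235 reads (2.55, 2.00 to 3.29). *Anln*, which encodes an actin-binding protein of cell division, had 7 of 9 bins higher, with 96 and 236 reads (2.46, 1.93 to 3.15). None of the bins of these 4 genes was 2-fold higher at 30 min.

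The lowest medians were found near *Dtwd2*, which encodes a tRNA-modifying enzyme. Its 9 bins had 262 reads at 30 and 89 at 60 min, a ratio of 0.340 (0.264 to 0.434), and 7 were 2-fold higher at 30 min. Reads per 10M were 99.9 at 10 min, 207 at 30 min and 18.4 at 3 hpi. Near *Irs2*, which encodes an adaptor of the insulin and IL-4 receptors, 8 bins had 289 and 149 reads (0.516, 0.420 to 0.630), and the level was 112 per 10M at 10 min and 47.0 at 3 hpi. *Bre* (10 bins, 385 and 189 reads, 0.491), *Stoml1* (10 bins, 328 and 164 reads) and *Zdhhc19* (13 bins, 521 and 324 reads, 0.622) were lower at 60 min as well. *Fam160b1*, also among the 12 lowest medians (−0.85), had 252 and 267 reads (1.06, 0.889 to 1.26). At 10 min, which the ranking did not use, the 12 genes with the lowest medians held 32.2 to 171 summed reads per 10M (median 111) and the 12 with the highest 14.9 to 84.6 (median 28), with *Myc* as the highest of the latter. The ranges overlapped.

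**Figure D4:**
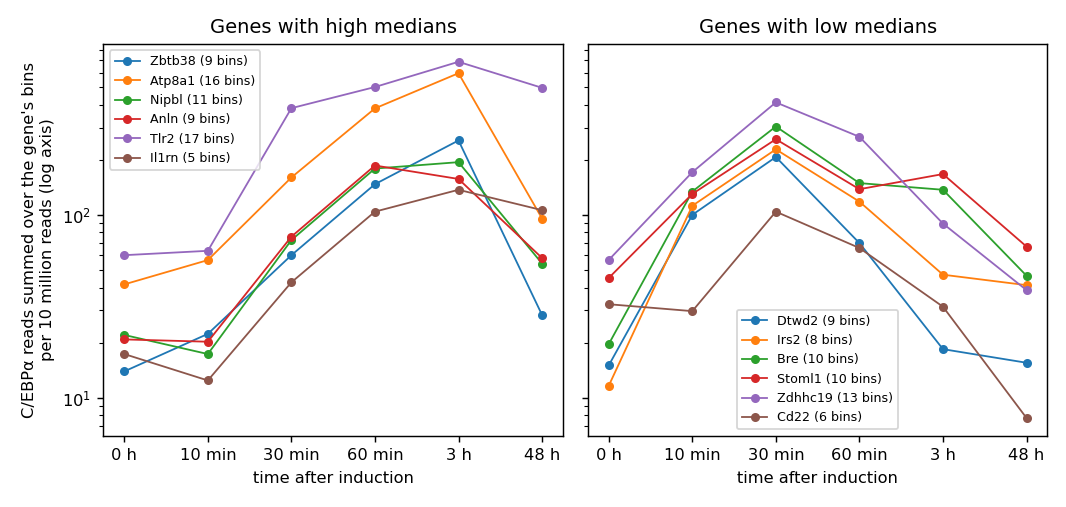
Reads per 10M summed over the bins of 6 genes higher at 60 min (left) and 6 genes lower at 60 min (right) at 0 hpi, 10, 30 and 60 min, 3 and 48 hpi. *Atp8a1* reached 595 and *Tlr2* 687 at 3 hpi, while *Dtwd2* was at 207 at 30 min and 18.4 at 3 hpi.

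Gene lists were described by the bins within 100 kb of the nearest TSS, beside the median of 0.18 and the shares of 21.7% and 9.69% over all bins. Counts of bins are descriptions, since neighbouring bins of a gene share fragments. Bins that passed the minimum through 1 library alone are included, so that ratios of summed reads and their intervals describe that choice in part. For the strongest bins of single genes, the median of 0.18 is not the matching background. Over all bins with 100 to 199, 200 to 299 and 300 or more reads over both libraries, the median log2 ratios were −0.02, −0.20 and −0.37. The 142 bins near myeloid receptor genes had a median of 0.23, with 26 (18.3%) higher at 60 and 7 (4.93%) higher at 30 min. *Tlr2*, a receptor for bacterial lipopeptides, had 9 of 17 bins higher at 60 min and 1 higher at 30 min. Its 3 bins around 43.6 kb upstream had 4, 38 and 8 reads at 30 min and 27, 88 and 23 at 60 min. The bin with the most reads, 21.4 kb upstream and with PU.1 at 0 hpi, had 140 and 128, a ratio of 0.914 (0.714 to 1.17). Of the 9 bins higher at 60 min, only that with 38 and 88 reads reached 10 reads in both libraries (2.32, 1.57 to 3.48). The direction of the others follows from the rule. Bins at 25.2, 25.4 and 25.6 kb upstream had 113 and 123, 46 and 69, and 46 and 46 reads, all within 2-fold. The interval of the bin with the most reads included 1.

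*Csf1r*, which encodes the receptor for CSF-1, had 6 bins with 52 and 77 reads (1.48, 1.03 to 2.15). Only its bin with 11 and 19 reads reached 10 reads in both libraries, so that the rule shaped this ratio. *Tlr4* had 12 bins with 226 and 314, and *Cd14* 5 bins with 99 and 134. Near *Il6ra*, *Ifngr2* and *Tyrobp* the sums were 400 and 369, 581 and 599, and 279 and 268. The strongest bin of *Il6ra*, which encodes the receptor chain for IL-6, lay 0.217 kb upstream of its TSS and held 179 and 137 reads (0.765, 0.608 to 0.961). *Itgam*, which encodes an integrin chain, had 85 and 69 reads, and *Csf2rb2* 35 and 23. The receptor genes of myeloid cells thus lay on both sides of equal reads.

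Near cytokine and chemokine genes, 25 of 99 bins (25.3%) were higher at 60 min and 6 (6.06%) at 30 min, with a median of 0.02. Of 21 bins near *Csf1*, which encodes the ligand of the receptor above, 8 were higher at 60 min and none at 30 min, and the sums were 385 and 580. Its bin at 46.7 kb upstream had 22 and 61 reads (2.77, 1.68 to 4.74), and that at 8.31 kb, whose sequence is shown above, had 30 and 63. *Il1rn*, which encodes the antagonist of the IL-1 receptor, had 54 and 125 reads in 5 bins (2.31, 1.67 to 3.25), and *Ccl6*, a chemokine gene, 49 and 93 (1.90, 1.33 to 2.74). Both sums include bins with fewer than 10 reads at 30 min, such as 7 and 18 at *Il1rn* and 3 and 13 at *Ccl6*. *Ccl3* had 630 and 555 reads in 17 bins. *Il6* had 745 and 539 in 12 bins, and its main bin 64.8 kb upstream had 263 and 160 (0.608, 0.497 to 0.743).

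The genes of C/EBP and PU.1 factors had 36 bins with a median of −0.20, of which 5 were higher at 60 and 4 at 30 min. *Cebpb*, which encodes the related factor C/EBPβ, had 16 bins with 682 and 593 reads, and its main bin 65.3 kb downstream of the TSS had 140 and 117 (0.836, 0.648 to 1.08). *Sfpi1*, the gene of PU.1, had its strongest bin at chr2:90923201-90923400, with 169 and 133 reads (0.787, 0.622 to 0.994). A pair of bins at chr2:90921201-90921600 were higher at 60 min, with 33 and 70 reads and with 14 and 36. At 10 min these 2 bins had held 1.65 and 4.13 reads per 10M, against 54.1 in the strongest bin.

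The gene lists of the B lineage showed smaller shares of bins higher at 60 min or shares near the background. Around genes of the pre-B cell receptor and of recombination, 9 of 101 bins (8.91%) were higher at 60 min and 13 (12.9%) at 30 min, with a median of −0.03. *Cd22*, which encodes an inhibitory receptor of B cells, had 131 and 86 reads in 6 bins (0.656, 0.494 to 0.868), and *Vpreb2*, which encodes a part of the surrogate light chain, 86 and 52 in 5 bins (0.605, 0.420 to 0.863). Other genes of the list had similar or more reads at 60 min, such as *Igll1* (343 and 344), *Il7r* (463 and 487), *Cd79b* (36 and 48) and *Cd24a* (70 and 87). The bins of *Cd22* went from 104 per 10M at 30 min to 65.8 at 60 min, 31.4 at 3 hpi and 7.73 at 48 hpi. Transcription factors of the B lineage had 175 bins with a median of 0.18, and 36 (20.6%) and 19 were called. *Irf4* (16 bins, 330 and 461 reads) and *Runx1* (42 bins, 1082 and 870 reads) lay on either side.

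Genes of signalling feedback had 182 bins with a median of 0.13, of which 46 (25.3%) were higher at 60 min and 15 (8.24%) at 30 min. Near *Dusp6*, a phosphatase of ERK kinases, 7 of 21 bins and near *Btg1*, an antiproliferative gene, 6 of 13 were higher at 60 min, and none of either was higher at 30 min. *Trib1*, whose product promotes the degradation of C/EBPα, had 35 bins with 1221 and 1191 reads, 10 of them higher at 60 and 3 at 30 min, and its main bin had 254 and 161 (0.634, 0.517 to 0.775). Genes of lysosomes, granules and the oxidase had 72 bins with a median of 0.30, with 16 (22.2%) and 2 (2.78%) called, among them *Mmp12* with 127 and 204 reads. The strongest bins of *Ncf1*, an oxidase subunit, and *Lyz1*, a lysozyme, had 219 and 160 and 176 and 148 reads. Targets of C/EBPα in liver and fat had 19 bins, a median of 0.27 (−0.09 to 0.84), and 4 (21.1%) and 1 (5.26%) called. Only 4 of the 14 genes of this list had a bin, and 8 of the bins lay near *Adipoq* and 9 near *Cd36*.

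AP-1 and immediate early genes had 116 bins with a median of −0.12, of which 18 (15.5%) were higher at 60 min and 17 (14.7%) at 30 min. Of these 18 bins, 10 were assigned to *Myc*. Without this gene the list had 102 bins, a median of −0.18, and 8 (7.84%) and 17 (16.7%) called. *Fos*, a subunit of AP-1, had 621 and 485 reads in 17 bins, and its main bin 4.94 kb upstream had 156 and 110 (0.705, 0.547 to 0.906). *Egr3*, *Atf3* and *Nr4a1*, transcription factor genes that respond early to stimuli, had 503 and 388, 465 and 366, and 258 and 207 reads. *Batf3* (248 and 394), *Fosl2* (130 and 178) and *Batf* (68 and 84) had more reads at 60 min.

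At *Myc*, which encodes a transcription factor of cell growth, the reads lay over coding sequence. Of its 10 bins higher at 60 min, 9 covered the second and the third coding exon, and the bins at 1.84 and 1.65 kb upstream had 107 and 92 and 41 and 38 reads. At full depth, the coding sequence held 21 reads at 0 hpi, 65 at 10 min, 172 at 30 min, 900 at 60 min and 16 at 3 hpi, and the introns between its parts 17, 36, 21, 17 and 30. These libraries differ in depth, so that the counts are not on 1 scale. Per kb and 10M reads, the coding sequence held 17.8, 19.7, 99.8, 348 and 10.8 at these times. Of the 900 reads, 515 lay in the coding part of chr15:61819062-61819833 and 384 in that of chr15:61820901-61821460, against 101 and 69 at 30 min. Among 5458 genes with 20 or more coding reads at 60 min, *Myc* had the highest ratio of read density in coding sequence to that in introns (96.3, with 1 read added to the introns). Reads limited to coding exons are what DNA without introns would give, and the presence of such DNA in these libraries was not tested.

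**Figure D5:**
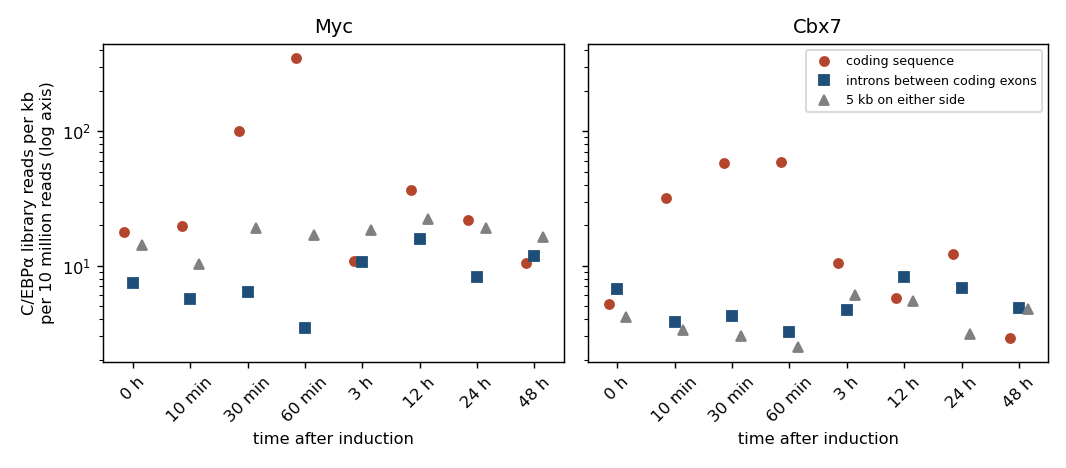
Reads per kb and per 10M over the coding sequence, the introns between its parts and the 5 kb on either side, for *Myc* and *Cbx7* in the 8 C/EBPα libraries. The coding sequence of *Myc* reached 348 at 60 min against 3.41 in its introns, and that of *Cbx7* was 57.9 at 30 min and 58.7 at 60 min.

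Next in this order were *Btbd19* (42.7), *Gm17535* (41.4) and *Cbx7* (18), which encodes a Polycomb protein. At 10 min, *Sox2*, which has no intron, held 39.2 reads per kb and 10M in its coding sequence and 3.80 in its flanks, and *Pou5f1* 22.1 in its coding sequence and 3.84 in its introns. The difference between coding sequence and introns was smaller at *Klf4* (5.7 and 4.49) and at *Sfpi1* (14.8 and 11.8). The coding sequence of *Cbx7* held 68, 65 and 99 reads at 10, 30 and 60 min, and 10 at 3 hpi, over a length of 888 bp, and its 14690 bp of introns 135, 78, 90 and 74. Per 10M reads the density over its coding sequence was about the same at 30 and 60 min (57.9 and 58.7 per kb). The coding sequence of *Cebpa*, which has no intron, held 21.5 reads per kb and 10M at 10 min, 30.1 at 30 min and 30.8 at 60 min, against 4.91, 5.61 and 3.74 in its flanks. In the thinned libraries 1 of its 2 bins, with 5 and 16 reads, counted among the 5 bins of C/EBP and PU.1 genes that were higher at 60 min.

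A small set of bins had reads in every library. In 103 bins, all 18 libraries of the 3 factors had 20 or more reads per 10M, and these bins were counted but not named. The 336 bins nearest *Sfi1* had a median of −0.11 and held 17.3 reads per 10M at 0 hpi, above the 2.31 of the bins in the 3 classes. Fragment lengths estimated from the 2 strands were 172 bp at 30 and 176 bp at 60 min. No reads shared position and strand in either library.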

How the data were processed

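ChIP-seq of C/EBPα in C10 cells at 30 and 60 min was analysed, with other C/EBPα time points and libraries of PU.1 and C/EBPβ as further readouts. According to the submitters' processing notes and the study's methods, the authors mapped reads on mm9 by ELAND or Bowtie, allowing no mismatch, and kept unique, non-identical ones. The deposited files hold read positions and strands, so that lines over a region are counts of reads without normalization. Versions and the aligner per library are not given in the sources used here. The labels and the methods state different β-estradiol concentrations, which are therefore not printed.

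Reads were counted as described above with Python 3.11.15, numpy 2.4.6, scipy 1.17.1, pandas 2.3.3 and pysam 0.24.0. Genes were those of GENCODE vM1 and sequences those of NCBIM37. Log2 ratios used a pseudocount of 1. Counts have exact Poisson intervals and shares Clopper-Pearson intervals at 95%, for counting error only. Sites joined bins at most 1 bin apart. Named were the 6 sites with most reads, the 8 with the highest and the 8 with the lowest 60-min share by interval bound, and up to 3 per gene list by reads. The ranking of genes by several bins, and the bins near *Tlr2*, *Csf1*, *Cebpb*, *Sfpi1*, *Myc* and *Cbx7* outside this rule, were chosen after their values were seen. Bins, gene lists and comparisons were chosen with earlier results of these data known. Counting and intervals were tested on simulated data. PU.1 libraries at 10, 30 and 60 min were not analysed here.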

Additional observations from a re-analysis of the deposited data

How the results depend on the processing

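No paired analysis was possible because each time point had 1 library, and for the same reason leaving out a replicate could not be done. The values were compared with 37268 bins, 8069 higher at 60 min, 3612 higher at 30 min, a median log2 ratio of 0.18, and differences of medians of −0.42 for PU.1, 0.18 for the consensus and −0.11 for promoters. With at least 15 reads, 22955 bins gave 3867, 1331 and 0.14. With at least 20 they were 16751, with 2351, 750, 0.11 and −0.39 for PU.1. With 20 reads over both libraries, 3906 and 1368 bins were called, with a median of 0.12 and −0.33 for PU.1. Bins of 400 bp gave 57425, with 14507 (25.3%) and 11422 (19.9%) called against 21.7% and 9.69%, 0.14, −0.27 for PU.1 and −0.06 for promoters. Without thinning, scaled counts gave 34349 bins, with 5462 (15.9%) and 3082 (8.97%) called, 0.10, −0.35 for PU.1 and 0.21 for the consensus. A grid moved by 100 bp gave 0.22 for the consensus. Without bins with 5 or more reads at 0 hpi, the median was 0.26 and the promoter difference −0.05. Calls at 1.5-fold were 12743 and 6507 and at 3-fold 3575 and 1568, and the 95% interval of the share lay above equal reads in 5292 bins and below in 2619. A PU.1 minimum of 15 reads gave −0.38. Promoters within 5000 bp gave 0.01, with an interval that included 0. Of 2 alternatives chosen after seeing the data, full depth corrected for occupied positions gave 0.14, −0.37 for PU.1 and 0.23 for the consensus, and 10 reads in both libraries left 21969 bins, with 1497, 487, 0.07, −0.23, 0.12 and −0.07 in the order above. The cause of these shifts was not tested, beyond the fewer bins that a stricter minimum leaves. Bins at the minimum of 10 reads had wide counting intervals, so that 2-fold calls at this depth are imprecise.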
